A study of Mus musculus with 9 samples.

Results

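Vessel genes were followed in hindlimb skeletal muscle of a mouse model of spinal muscular atrophy. The group holds 36 genes of 32594 in the count table, matched by symbol, and all 36 passed the filter on low counts that left 15873 genes for testing. By known role, 21 are endothelial identity genes, 6 encode angiogenic ligands and 9 mark mural cells, the pericytes and smooth muscle cells that wrap vessels. The study measured RNA in 9 libraries, of which 5 were wild type and 4 carried the genotype SMN delta 7 (called SMA here), all of the FVB/N background. Alleles, age, sex, litter and pooling are not stated in the labels, and nothing in them says that each library came from its own animal. Every p-value therefore measures the spread between these libraries, which may be technical in part.

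Blood vessels of muscle form by a dialogue between cell types. Muscle fibres and other cells release VEGF ligands, which act on the receptors Kdr and Flt1 of endothelial cells, and endothelial cells of growing sprouts release Pdgfb, which attracts pericytes carrying its receptor Pdgfrb. Angpt1, made largely by mural cells, stabilises vessels through the endothelial receptor Tek, and Angpt2 modulates the same receptor, while Apln and its receptor Aplnr act during sprouting. The RNA came from whole muscle, so for every gene here fewer cells of a type and less RNA per cell cannot be told apart. Several of these genes are also expressed outside vessels, among them Vegfa, Vegfb and Abcc9 in muscle fibres and Tagln in fibroblasts.

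Promoter sequences are shown for the 4 members with the lowest adjusted p-values that matched the RefSeq promoter table (GRCm38.p6, which is mm10), where 19 of the 36 members matched. They are the endothelial receptor gene Robo4, the ligand gene Apln and the pericyte genes Rgs5 and Abcc9, of which the first rose and the others fell in SMA. Each runs 5′ to 3′ on the strand of the gene, from 250 bases before to 50 bases after the annotated start. Capitals mark GGAA, the core of sites for ETS factors such as Erg, or its reverse complement TTCC.
Robo4, chr9:37401722-37402021, plus strand: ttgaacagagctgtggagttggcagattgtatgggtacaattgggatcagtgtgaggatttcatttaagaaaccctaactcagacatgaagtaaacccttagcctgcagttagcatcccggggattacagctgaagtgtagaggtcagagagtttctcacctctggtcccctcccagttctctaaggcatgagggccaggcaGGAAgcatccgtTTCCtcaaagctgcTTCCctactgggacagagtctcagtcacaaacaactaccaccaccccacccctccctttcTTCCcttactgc
Apln, chrX:48034804-48035103, minus strand: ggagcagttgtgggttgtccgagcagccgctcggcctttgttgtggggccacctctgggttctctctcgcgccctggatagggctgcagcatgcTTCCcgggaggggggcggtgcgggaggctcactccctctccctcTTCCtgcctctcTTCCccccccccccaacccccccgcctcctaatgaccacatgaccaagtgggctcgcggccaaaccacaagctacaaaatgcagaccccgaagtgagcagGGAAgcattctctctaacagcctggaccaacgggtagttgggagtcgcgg
Rgs5, chr1:169655251-169655550, plus strand: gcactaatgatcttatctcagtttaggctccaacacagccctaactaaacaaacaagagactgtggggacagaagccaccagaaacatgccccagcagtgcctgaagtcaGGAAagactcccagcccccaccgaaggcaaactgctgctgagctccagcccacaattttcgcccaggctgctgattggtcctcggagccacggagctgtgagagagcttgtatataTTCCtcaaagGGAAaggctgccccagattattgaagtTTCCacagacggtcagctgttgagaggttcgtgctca
Abcc9, chr6:142702225-142702524, minus strand: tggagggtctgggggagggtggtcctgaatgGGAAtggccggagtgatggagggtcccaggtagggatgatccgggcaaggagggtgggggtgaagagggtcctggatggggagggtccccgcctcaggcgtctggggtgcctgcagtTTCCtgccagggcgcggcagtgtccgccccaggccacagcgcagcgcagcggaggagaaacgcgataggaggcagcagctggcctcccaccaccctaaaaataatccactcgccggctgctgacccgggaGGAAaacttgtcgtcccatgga
The GGAA core, searched on both strands, occurred 4 times in the Robo4, Apln and Rgs5 windows and 3 times in that of Abcc9. It is short, and 96% of the 32851 promoters in the table held it, against 22 of the 24 promoters of the 19 matched members. ACAAT, a core of sites for SOX factors, was found in 7 of the 24 promoters, those of Robo4 and Rgs5 among them, and in 31.0% of all promoters. ACGTG, a core of the hypoxia response element, was in 3 of the 24 promoters (of Vegfa, Cnn1 and Notch3) and in 19.6% of all promoters. The longer ETS site CCGGAAG and the CArG box of smooth muscle genes were in 0 of 24, with 8.86% and 1.63% of all promoters holding them. A match describes letters in a window and is not a bound site.

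Libraries held 24917665 to 35087722 counts, and genes were tested with edgeR (quasi-likelihood F test), p-values being adjusted by Benjamini and Hochberg's method over all 15873 genes. Levels are given as counts-per-million (CPM) of an effective library size, the total times its TMM factor (trimmed mean of M values). Smn1, taken as a check of the group labels, was at 13 ± 1.04 CPM in wild type (SD, n = 5) and 2.04 ± 0.570 CPM in SMA (SD, n = 4), with no overlap between the groups (log2 fold change -2.66 ± 0.17, adjusted p = 2.9e-07 by edgeR). Most of the transcriptome shifted, so the share of genes called is the background for any count given here. At an adjusted p below 0.05, 54.9% of all genes tested were called, 27.7% as higher and 27.2% as lower in SMA, and the libraries of the groups did not overlap for 44.2%. Scaling to total counts alone moved the median over all genes from 0.0060 to 0.24 on the log2 scale, so that 74.7% of calls rose against 50.4%, and a change is given relative to the scaling used throughout. Y-linked genes were expressed in 4 of 5 wild type and 1 of 4 SMA libraries, so sex differed between the groups and was also fitted as a covariate.

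Of the 36 members, 4 rose, 10 fell and 22 did not pass, so that 38.9% were called, against 54.9% of all genes; the difference between these shares was not tested. The libraries did not overlap for 10 of the 36, beside 44.2% of all genes tested. The median log2 fold change was -0.07 over the members and 0.0060 over all genes. The members' median was 0.16 with scaling to total counts, -0.18 without SMA 3 and -0.037 without SMA 4. Called shares were 28.6% of the 21 endothelial identity genes, 83.3% of the 6 ligand genes and 33.3% of the 9 mural genes. Scaled to total counts 8 members rose and 5 fell, and without wild type 3 there were 2 that rose and 8 that fell. Of the endothelial identity genes 2 fell without wild type 2, 3 or 4 or SMA 1 or 4 and with sex as a covariate, 6 without wild type 1 or SMA 3 and 1 with scaling to total counts. The calls of Robo4, Plvap, Sox7, Apln, Pdgfb, Rgs5 and Abcc9 held in all 19 alternatives.

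**Figure D1:**
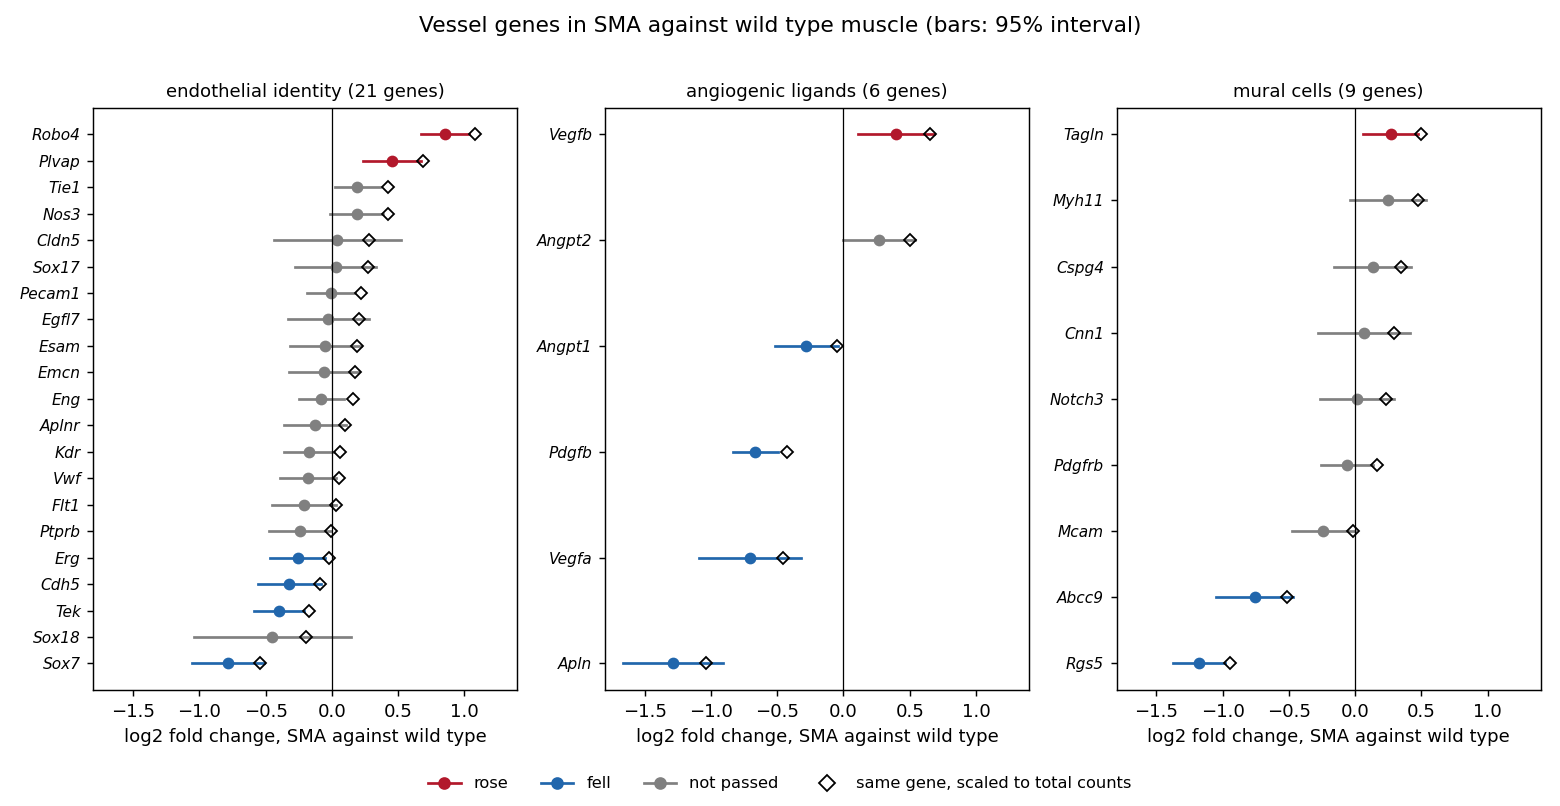
Log2 fold change of each of the 36 members, SMA against wild type (x axis), in panels of 21 endothelial identity genes, 6 ligand genes and 9 mural genes; dots are the fitted values, bars their 95% intervals, and open diamonds the values with scaling to total counts. Robo4 and Plvap are farthest to the right in the first panel, Apln is lowest among the ligands and Rgs5 among the mural genes, and the diamonds lie to the right of the dots in every panel.

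Robo4 showed the largest rise of any member. It encodes an endothelial guidance receptor that limits VEGF-driven leak and sprouting. The gene lies on chromosome 9 from 37401897 to 37415115 on the plus strand of mm10 (positions of genes are from GENCODE M21). Its level was 51.9, 63.4, 62.7, 61.8 and 55.5 CPM in wild type libraries 1 to 5 and 118, 106, 99.97 and 103 CPM in SMA libraries 1 to 4. Each SMA library lay far above the highest wild type library, and the spread within each group was small. The log2 fold change was 0.85 ± 0.083 (SE), a 1.81-fold rise with an adjusted p of 6.1e-06 by edgeR. Per Cdh5 count, a ratio chosen after the values were seen that needs no scaling, Robo4 had 0.247 to 0.309 counts in wild type and 0.555 to 0.689 in SMA.

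Plvap, which forms the diaphragms of fenestrated and venous endothelium, was the other endothelial gene that rose. Its level was 11.4, 12, 12.7, 9.44 and 10.7 CPM in wild type and 15.3, 16.6, 16.0 and 13.6 CPM in SMA. The groups did not overlap, although SMA 4 lay close to wild type 3. Plvap rose by 0.45 ± 0.10 on the log2 scale (1.37-fold, adjusted p = 0.0025 by edgeR).

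Among transcription factors of endothelial identity, the 3 SOX factors of the F group differed in their values. Sox7 was at 22.4, 28.9, 28.1, 28.9 and 30.4 CPM in wild type and at 13.5, 15.4, 20.3 and 15.4 CPM in SMA, with no overlap. It fell 1.72-fold, with a log2 fold change of -0.78 ± 0.12 and an adjusted p of 2.4e-04 by edgeR. Sox17, a factor of arterial endothelium, was at 18.6 ± 3.10 CPM in wild type and 19.0 ± 3.29 CPM in SMA (SD, n = 5 and 4), with a log2 fold change of 0.03 and a 95% interval from -0.27 to 0.33. Per Sox17 count, a ratio chosen after the values were seen, Sox7 had 1.34 to 1.83 counts in wild type and 0.790 to 0.948 in SMA. Sox18 was at 30.7, 39.5, 34.4, 43.3 and 37.4 CPM in wild type and at 16.3, 22.6, 50.2 and 19.5 CPM in SMA. Of these SMA libraries 3 lay below all wild type libraries and SMA 3 lay above them all. Sox18 did not pass (log2 fold change -0.45 ± 0.27, adjusted p = 0.18 by edgeR), and without SMA 3 its value was -0.93 at an adjusted p of 9.7e-05. Erg, the ETS factor that maintains endothelial junction genes, was at 23.5 ± 1.47 CPM in wild type and 19.7 ± 2.68 CPM in SMA, and fell by 0.26 ± 0.096 on the log2 scale (adjusted p = 0.038 by edgeR). The call of Erg was lost with sex as a covariate, at 0.23, with scaling to total counts, at 0.89, and without wild type 2, 3 or 4 or SMA 1 or 4, where the highest adjusted p was 0.12.

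Among endothelial receptors, Tek fell and the VEGF receptors did not pass. Tek, the angiopoietin receptor, was at 43.1, 47.7, 40.2, 44.7 and 45.4 CPM in wild type and 29.5, 38.3, 32.5 and 33.5 CPM in SMA. The groups did not overlap, and SMA 2 was nearest to wild type 3. Its log2 fold change was -0.40 ± 0.086 (adjusted p = 0.0020 by edgeR), which did not pass with scaling to total counts, at -0.17 and 0.20. Its orphan relative Tie1 moved the other way in value, from 99.98 ± 3.69 to 114 ± 10.6 CPM, a log2 fold change of 0.19 ± 0.079 (adjusted p = 0.056 by edgeR). Tie1 passed with DESeq2, at 0.035, with scaling to total counts, at 0.00348, with the stricter low-count filter, at 0.045, and without SMA 4, at 0.018. Kdr and Flt1 had log2 fold changes of -0.18 (95% interval -0.36 to 0.013) and -0.21 (-0.45 to 0.034). Kdr passed without wild type 1, at an adjusted p of 0.041, and with upper-quartile scaling, also at 0.041, and Flt1 without SMA 2, at 0.025, all by edgeR and all as lower. Aplnr, the apelin receptor, had a log2 fold change of -0.13 (-0.36 to 0.11), and Eng, a co-receptor for BMP ligands, of -0.08 (-0.25 to 0.093). Ptprb, the phosphatase that acts on Tek, was at 97.5 ± 12.7 and 82.6 ± 8.19 CPM, with an adjusted p of 0.074 by edgeR, and passed with upper-quartile scaling, at 0.035, and without wild type 1, at 0.032.

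Of the junction and surface genes of endothelium, Cdh5 fell and the others did not pass. Pecam1, the adhesion molecule of endothelial junctions, was at 164, 204, 186, 198 and 184 CPM in wild type and 184, 200.5, 183 and 177 CPM in SMA. All 4 SMA values lay inside the wild type range, and the 95% interval of the log2 fold change ran from -0.19 to 0.18. Cdh5, the cadherin of endothelial junctions, was at 168, 234, 223, 224 and 225 CPM in wild type and 174, 192, 174 and 149 CPM in SMA. Wild type 1 lay among the SMA values and the other wild type libraries lay above them. Cdh5 fell by 0.32 ± 0.11 on the log2 scale (adjusted p = 0.027 by edgeR). That call was lost in 8 of 19 alternatives, among them sex as a covariate, at 0.11, scaling to total counts, at 0.57, the replicate block, at 0.062, and without SMA 4, at 0.090, or wild type 2, 3, 4 or SMA 1, at 0.052 to 0.057. The remaining genes gave intervals that included 0 on both sides. Emcn, a sialomucin, had a log2 fold change of -0.06, the adhesion molecule gene Esam -0.05, the tight junction gene Cldn5 0.04 and the secreted factor gene Egfl7 -0.03, while Nos3, which makes nitric oxide, was at 0.19 (-0.011 to 0.38) and Vwf, the clotting factor stored by endothelium, at -0.18 (-0.39 to 0.028). Nos3 passed as higher with scaling to total counts, at an adjusted p of 0.010, and without SMA 1, at 0.029, by edgeR. Exons of Nos3 overlap those of Atg9b and an antisense gene, exons of Eng those of Fpgs, exons of Sox17 those of Gm37587 and exons of Egfl7 those of Agpat2 and Gm20532 in GENCODE M21, and whether the counting used strand is not given in the sources used here, so these values may include reads of their neighbours.

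**Figure D2:**
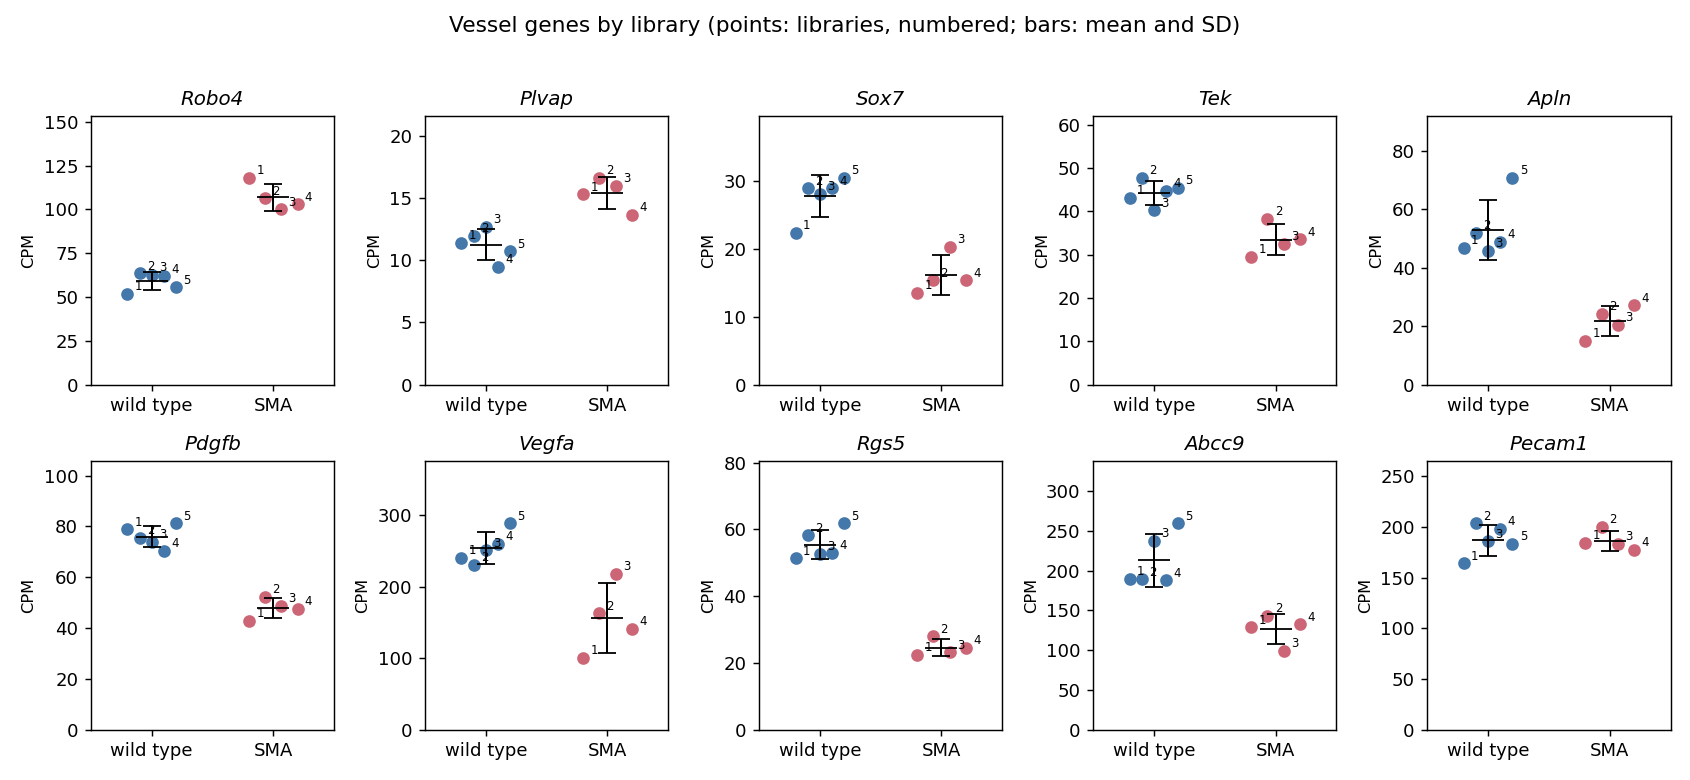
Level of 10 members in CPM (y axis, from 0) in each wild type and SMA library, with numbered points for libraries and bars for the mean and SD of 5 and 4 libraries. Robo4 and Plvap are higher in every SMA library, Sox7, Tek, Apln, Pdgfb, Vegfa, Rgs5 and Abcc9 are lower in every one, and the Pecam1 values of both groups share 1 range.

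Ligand genes were lower in SMA apart from Vegfb and Angpt2. Apln encodes apelin, a peptide of sprouting endothelium that muscle also secretes. The gene lies on chromosome X from 48025146 to 48034853 on the minus strand. It was at 46.8, 52.0, 45.8, 48.8 and 70.7 CPM in wild type and 15.1, 24.2, 20.4 and 27.1 CPM in SMA. Every SMA library lay below every wild type library, with wild type 5 standing above the rest. Apln fell 2.44-fold, with a log2 fold change of -1.28 ± 0.17 and an adjusted p of 7.3e-05 by edgeR, the largest fall of any member, and without wild type 5 it was -1.16. Pdgfb, the signal by which endothelium attracts pericytes, was at 78.8, 75.5, 73.9, 70.4 and 81.3 CPM in wild type and 43.0, 52.3, 48.7 and 47.6 CPM in SMA. The groups were well apart, and Pdgfb fell 1.59-fold (log2 fold change -0.67 ± 0.077, adjusted p = 2.3e-05 by edgeR).

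The VEGF ligand genes went in opposite directions. Vegfa, the main ligand of Kdr, was at 241, 231, 251, 259.9 and 289 CPM in wild type and 101, 163, 219 and 141 CPM in SMA. All SMA libraries were lower, and SMA 3 came closest to wild type. Vegfa fell 1.63-fold (log2 fold change -0.71 ± 0.18, adjusted p = 0.0050 by edgeR), and scaled to total counts it was at -0.45 with an adjusted p of 0.056. Vegfb, a ligand of Flt1 that is abundant in oxidative muscle, was at 59.3, 49.3, 54.1, 59.5 and 69.6 CPM in wild type and 67.4, 74.3, 100.1 and 65.7 CPM in SMA. The groups overlapped, with wild type 5 above 2 SMA libraries. Vegfb rose by 0.40 ± 0.13 on the log2 scale (adjusted p = 0.023 by edgeR), and the call was lost without SMA 3, at 0.24 and 0.062, without wild type 2, at 0.0576, without wild type 3, at 0.053, and with sex as a covariate, at 0.067.

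The angiopoietins were low in both groups. Angpt1 was at 15.3, 13.7, 11.7, 15.1 and 15.1 CPM in wild type and 12, 11.9, 9.78 and 13.1 CPM in SMA, with overlap. It fell by 0.28 ± 0.11 on the log2 scale with an adjusted p of 0.048 by edgeR, and lost the call in 11 of 19 alternatives. Its adjusted p by edgeR was 0.32 with sex as a covariate, 0.75 with scaling to total counts, 0.056 with no low-count filter, 0.057 to 0.12 without wild type 1, 2, 4 or 5 or SMA 1, 2 or 3, and 0.15 without wild type 5 and SMA 3. Its exons overlap those of the antisense gene Gm17473. Angpt2 was at 6.85 ± 0.843 CPM in wild type and 8.26 ± 1.20 CPM in SMA (SD, n = 5 and 4), with a log2 fold change of 0.27 and a 95% interval from -0.0049 to 0.54, and it passed with scaling to total counts, at an adjusted p of 0.020 by edgeR.

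Ratios of a ligand to its receptor or partner within a library do not depend on scaling, and 4 such ratios were each tested by an exact permutation test, two-sided, over the 126 divisions of the libraries, with p-values adjusted over the 4. Counts of Apln per count of Aplnr were 0.529, 0.483, 0.467, 0.435 and 0.876 in wild type and 0.194, 0.267, 0.207 and 0.302 in SMA. The ratio was 2.26-fold lower in SMA, with no overlap (exact permutation p = 0.00794, the smallest that 126 permutations can give, adjusted p = 0.0159). Counts of Pdgfb per count of Pdgfrb were 0.881, 0.784, 0.816, 0.807 and 1.15 in wild type and 0.512, 0.605, 0.585 and 0.602 in SMA, a 1.53-fold fall with the same exact and adjusted p. Wild type 5 had the highest value of both ratios, and without it the log2 differences were -1.0 and -0.51. Counts of Vegfa per count of Kdr were 2.64 ± 0.317 in wild type and 1.79 ± 0.488 in SMA (SD, n = 5 and 4; exact permutation p = 0.0317, adjusted p = 0.0423). Counts of Angpt2 per count of Angpt1 were 0.489 ± 0.0932 and 0.723 ± 0.198 (exact permutation p = 0.0476, adjusted p = 0.0476). The ratios of Vegfa to Kdr and of Angpt2 to Angpt1 overlapped between the groups. Wild type 2 and 3 had 2.24 and 2.35 counts of Vegfa per count of Kdr, below the 2.46 of SMA 3. When libraries were left out singly, the ratio of Angpt2 to Angpt1 kept an unadjusted exact p below 0.05 only without SMA 4, at 0.036. That of Vegfa to Kdr did so only without SMA 3, at 0.0179.

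Of the 9 mural members, Rgs5 and Abcc9 fell and Tagln rose, while Pdgfrb, Cspg4, Notch3, Mcam, Myh11 and Cnn1 did not pass. Rgs5, a regulator of G-protein signalling that marks pericytes, lies on chromosome 1 from 169655501 to 169695813 on the plus strand. It was at 51.4, 58.2, 52.7, 53.1 and 61.9 CPM in wild type and 22.4, 28.0, 23.1 and 24.6 CPM in SMA. No SMA library reached above 28.0 CPM and no wild type library was below 51.4 CPM. Rgs5 fell 2.26-fold, with a log2 fold change of -1.18 ± 0.090 and an adjusted p of 1.0e-06 by edgeR, the lowest of the 36 members. Abcc9, the sulphonylurea receptor of potassium channels in pericytes and also in muscle fibres, lies on chromosome 6 from 142587862 to 142702315 on the minus strand, where 158 bases of its exons overlap an antisense gene. It was at 189.6, 189, 238, 188 and 259.8 CPM in wild type and 129, 144, 99.5 and 133 CPM in SMA. All SMA libraries were lower, and Abcc9 fell 1.69-fold (log2 fold change -0.76 ± 0.13, adjusted p = 5.2e-04 by edgeR).

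Other mural receptor genes of the group did not pass. Pdgfrb, the receptor by which pericytes respond to Pdgfb, was at 89.5, 96.2, 90.5, 87.3 and 70.6 CPM in wild type and 83.9, 86.4, 83.3 and 79.0 CPM in SMA. All 4 SMA values lay within the wild type range, with a 95% interval of the log2 fold change from -0.26 to 0.13. Per Pdgfrb count, ratios chosen after the values were seen, Rgs5 had 0.574 to 0.876 counts in wild type and 0.266 to 0.324 in SMA, and Abcc9 1.97 to 3.68 and 1.19 to 1.68. Notch3, the Notch receptor of mural cells, was at 67.3 ± 11.7 and 67.9 ± 8.96 CPM, and Cspg4, the proteoglycan NG2, at 32.7 ± 6.01 and 35.8 ± 4.08 CPM, with log2 fold changes of 0.01 and 0.13. Mcam, an adhesion molecule of mural and endothelial cells, was at 153 ± 9.22 and 130 ± 21.7 CPM, with an adjusted p of 0.083 by edgeR. It passed as lower with upper-quartile scaling, at 0.030, and without SMA 4, at 0.038. Exons of Notch3 share 488 bases with the antisense gene Gm17276, and those of Mcam 17 bases with the antisense gene Gm10687.

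Of the contractile genes of vascular smooth muscle, Tagln rose and Myh11 and Cnn1 did not pass. Tagln, an actin-binding protein gene, was at 38.0, 49.7, 41.3, 43.3 and 43.2 CPM in wild type and 49.2, 57.5, 45.5 and 55.9 CPM in SMA. The groups overlapped through wild type 2, and Tagln rose by 0.27 ± 0.095 on the log2 scale (adjusted p = 0.030 by edgeR). Its call was lost in 6 of 19 alternatives, at 0.066 to 0.099 without wild type 1 or 3 or SMA 2 or 4, at 0.0749 with upper-quartile scaling and at 0.052 with no low-count filter, and its exons overlap those of Pcsk7 and an antisense gene. Myh11, the myosin heavy chain of smooth muscle, was at 41.7 ± 5.12 and 49.5 ± 9.85 CPM, with a log2 fold change of 0.25 and an interval from -0.038 to 0.54. It passed as higher with scaling to total counts, at an adjusted p of 0.013, and without SMA 3, at 0.024, by edgeR. Cnn1, the calponin of mature smooth muscle, was at 2.64 ± 0.235 and 2.76 ± 0.499 CPM, with a log2 fold change of 0.07.

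Levels of different genes can be set side by side only per length. Divided by the kilobases of exon in GENCODE M21, Vegfa was the most abundant member in wild type, at 59.4 CPM per kilobase, followed by Cdh5 at 51.1, Mcam at 45.8 and Cldn5 at 42.6. In SMA Vegfb was first, at 47.9 CPM per kilobase, and Vegfa was at 36.4. Cnn1 was the least abundant member in both groups, at 0.963 and 1.01 CPM per kilobase. Rgs5 went from 12.2 to 5.4 CPM per kilobase and Robo4 from 11.1 to 20.1. Differences of a few units between neighbours in this order were not tested.

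SMA 3 stood apart from the other SMA libraries in several members. It was the highest SMA library for 13 of the 27 endothelial and ligand genes, beside 11 for SMA 2, and the lowest for 7 of the 9 mural genes. Cldn5 was at 103 CPM in SMA 3 while SMA 1, 2 and 4 lay from 45.7 to 50.5 CPM, against 48.1 to 72.6 CPM in wild type. Egfl7 was at 172 CPM in SMA 3 and 107 to 113 CPM in the others. Without SMA 3 the log2 fold change of Cldn5 was -0.32 (adjusted p = 0.031 by edgeR). Without wild type 5 and SMA 3 together, which earlier results of these data had placed apart from their groups, 5 members rose and 13 fell, with 8 of the falls among endothelial identity genes.

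**Figure D3:**
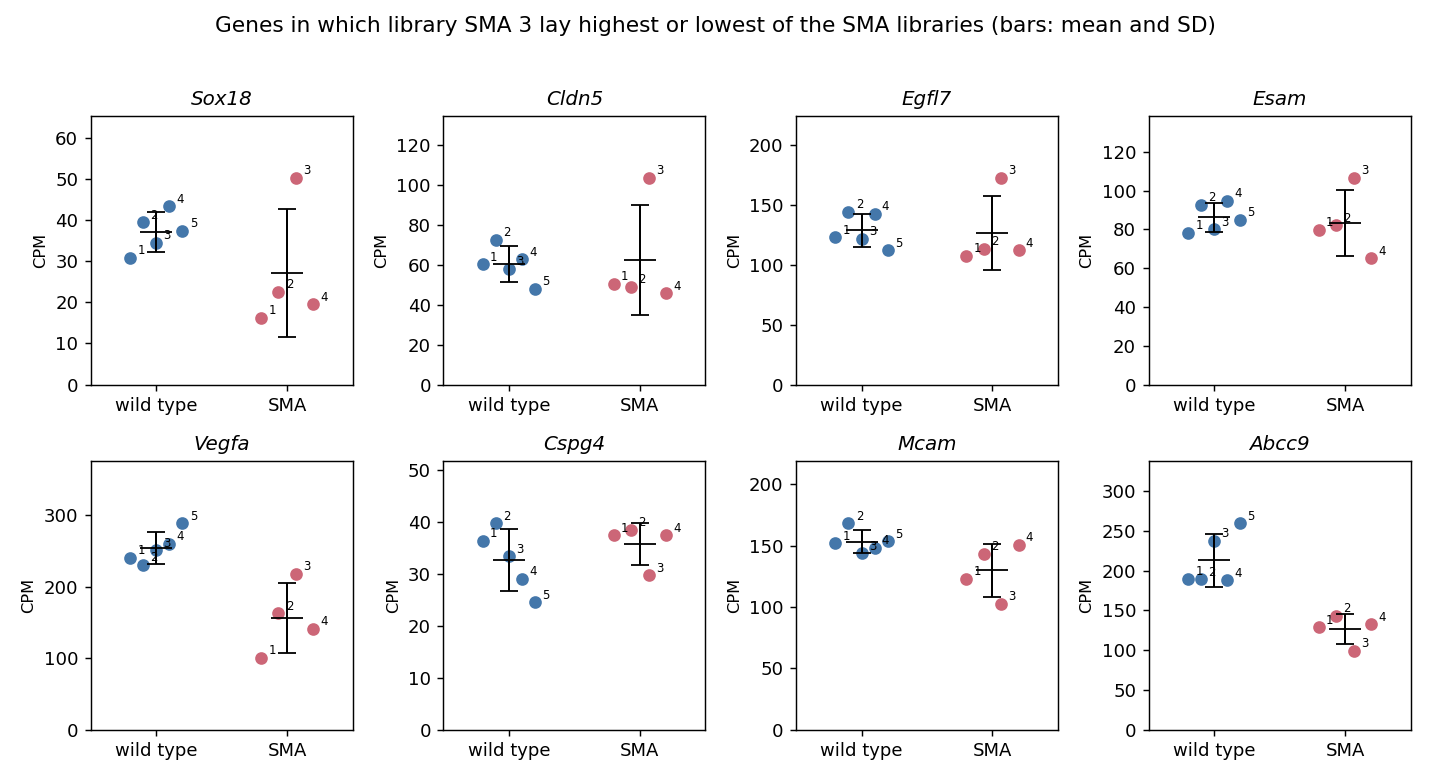
Level in CPM (y axis, from 0) of 8 members in each library, with numbered points and bars for the mean and SD of each group. Library SMA 3 is the highest SMA point for Sox18, Cldn5, Egfl7, Esam and Vegfa and the lowest for Cspg4, Mcam and Abcc9.

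Further genes of vessel cells, from lists chosen with earlier results of these data known, gave calls in both directions. Of 30 other endothelial genes tested, 6 rose, 8 fell and 16 did not pass, with a median log2 fold change of -0.13, which was 0.11 with scaling to total counts, -0.21 without SMA 3 and -0.050 without SMA 4. The 2 with the lowest adjusted p-values were among the falls. Cd34, a sialomucin of capillary endothelium and progenitor cells, fell by 0.57 ± 0.10 on the log2 scale and Pcdh12, an endothelial protocadherin gene, by 0.68 ± 0.12. Scaled to total counts 8 of the 30 rose and 2 fell, and with sex as a covariate 5 fell. Of 11 capillary genes, 3 rose, 4 fell and 4 did not pass (6 rose and 1 fell with scaling to total counts, and 5 rose without SMA 4), with the fatty acid transporter gene Cd36 at 1.34 ± 0.13, from 281 ± 49.2 to 710 ± 87.8 CPM, and the water channel gene Aqp1 at -0.70 ± 0.11. Muscle fibres and adipocytes also express Cd36. Of 15 arterial genes 1 rose and 5 fell (2 fell with scaling to total counts, 3 with sex as a covariate or without SMA 4), the Notch ligand gene Jag2 at 0.92 ± 0.092 and the chemokine gene Cxcl12 at -0.66 ± 0.11 having the lowest adjusted p-values. Of 8 venous genes 2 rose and 2 fell. Those with the lowest adjusted p-values were the falls. They were Vcam1, a leukocyte adhesion receptor gene also listed among satellite cell genes, at -0.92 ± 0.11 and Nrp2, a co-receptor of VEGF and semaphorins, at -0.51 ± 0.086. Of 7 lymphatic genes 2 rose and 2 fell (1 fell without wild type 1, 2 or 3 or SMA 1, 3 or 4 and with sex as a covariate or the replicate block, 0 with scaling to total counts), with the secreted glycoprotein gene Reln at 0.67 ± 0.14 and Prox1, the lymphatic master regulator, at 0.68 ± 0.20, which was lost with sex as a covariate, at an adjusted p of 0.059 by edgeR, and with the replicate block, at 0.064.

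Tip cell genes, which mark the leading cells of sprouts, were the endothelial list that fell most. Of 12 tested, 0 rose, 7 fell and 5 did not pass, a share of 58.3% lower against 27.2% of all genes, with a median log2 fold change of -0.54. Scaled to total counts, 1 rose and 5 fell, and without SMA 1, 2 or 4 there were 5 that fell. The members Apln, Pdgfb and Angpt2 belong to this list as well, and Angpt2 did not pass, at 0.27. Of the 9 genes that are not members, 0 rose and 5 fell. Unc5b, a netrin receptor gene of tip cells, fell from 38.7 ± 3.20 to 15.5 ± 2.22 CPM, and Esm1, a proteoglycan gene induced by VEGF, from 4.92 ± 1.21 to 1.85 ± 0.312 CPM (SD, n = 5 and 4), with log2 fold changes of -1.32 ± 0.11 and -1.41 ± 0.20. Beside this, all 10 cell cycle genes tested fell, and their summed level was 164 to 213 CPM in wild type and 48.2 to 59.8 CPM in SMA. Their part in the fall of the tip cell genes was not tested.

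Of 31 other mural cell genes tested, 16 fell, 1 rose and 14 did not pass, with a median log2 fold change of -0.38. The share lower was 51.6%, against 27.2% of all genes. How far cells outside vessels contribute to the levels of this list was not tested. Scaled to total counts, 6 fell and 4 rose. Kcnj8, whose product forms the pore of the potassium channel that Abcc9 completes, fell from 28.7 ± 1.47 to 17.5 ± 2.03 CPM, with a log2 fold change of -0.71 ± 0.088. Acta2, the smooth muscle actin gene that immature muscle fibres also express, fell by 2.11 ± 0.20 on the log2 scale, from 517 ± 122 to 119 ± 22.9 CPM.

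In the VEGF, angiopoietin and PDGF pathway list 6 of 26 genes rose and 6 fell, with a median log2 fold change of -0.20, which was 0.015 with scaling to total counts, -0.038 with sex as a covariate, -0.10 without wild type 2 and -0.096 without SMA 3, and 10 fell with the replicate block. Plcg1, a phospholipase downstream of Kdr, rose by 0.73 ± 0.083, Angptl4, a secreted inhibitor of lipoprotein lipase, by 1.56 ± 0.22 and Sema3f, a semaphorin gene, by 0.84 ± 0.13, while Nrp1, the VEGF co-receptor, fell by 0.57 ± 0.082 on the log2 scale. Hypoxia response genes were mixed, with 11 of 24 higher and 7 lower (4 lower with scaling to total counts). These shares were 45.8% higher and 29.2% lower, against 27.7% and 27.2% of all genes. Egln3, an oxygen-sensing hydroxylase gene, rose by 2.09 ± 0.11, Hif3a, a hypoxia-inducible factor gene, by 4.27 ± 0.24 and Slc2a1, a glucose transporter gene, by 1.19 ± 0.093, whereas Pfkfb4, a regulator of glycolysis, fell by 1.53 ± 0.10 on the log2 scale. Vegfa, a target of this response that muscle fibres also express, fell, and its relation to these genes was not tested.

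**Figure D4:**
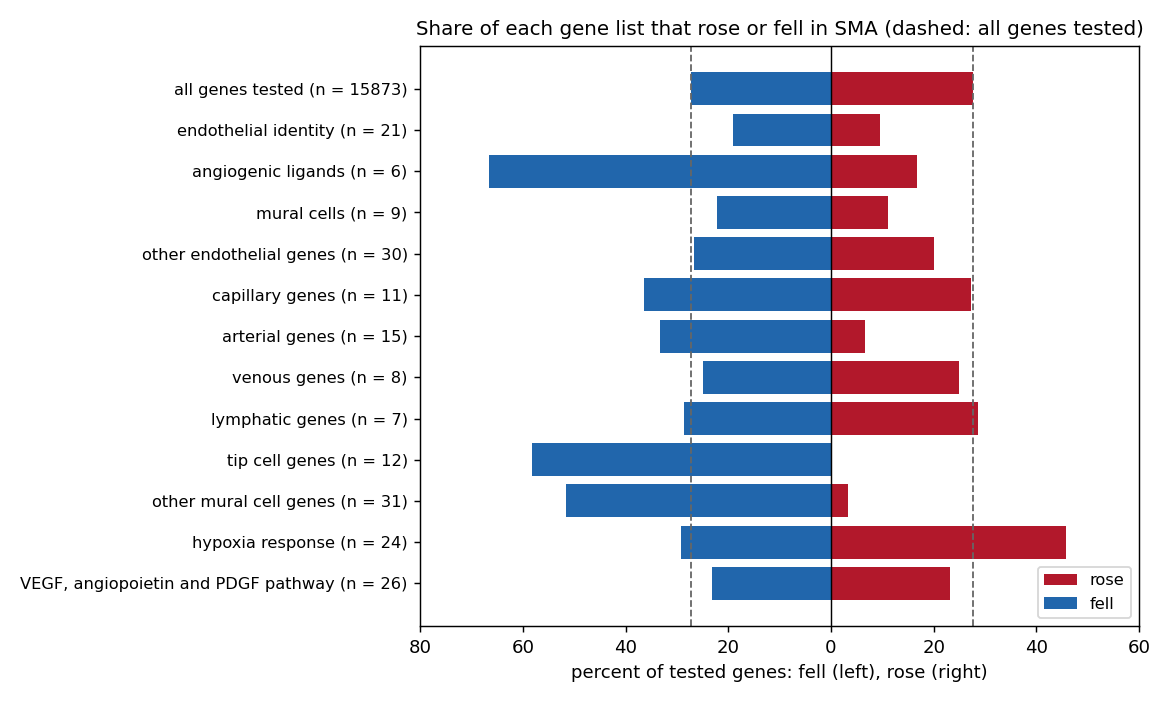
Percent of the tested genes of the 3 member groups and 9 other vessel, pathway and hypoxia lists that fell (left) or rose (right) in SMA, with dashed lines at the shares of all 15873 genes, 27.2% lower and 27.7% higher. The ligand genes, at 66.7% lower, and the tip cell genes, at 58.3%, extend farthest to the left of the 12 lists drawn, and the hypoxia list farthest to the right.

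Markers of other cell types differed between the groups as well, and their part in the vessel results was not tested. Summed levels of 10 myofibre genes, of which 8 fell, were 150500 to 209200 CPM in wild type and 80840 to 96360 CPM in SMA, with Mylpf at -1.45 and Tnni2 at -1.19 on the log2 scale. Fibroblast genes (9 of 11 fell, 1 rose; 5 fell with scaling to total counts, and 0 rose without SMA 1 or 2) summed to 4375 to 8387 and 2614 to 3888 CPM, with Lum at -1.41 and Col1a1 at -1.54, and tendon genes (6 of 6 fell) to 122 to 290 and 64.9 to 114 CPM, with Scx at -1.59 and Tnmd at -1.65. Red cell genes (4 of 4 fell) summed to 1216 to 2040 and 603 to 959 CPM, with Hbb-bs at -1.17 and Hba-a2 at -1.11. Macrophage genes (5 of 11 fell, 1 rose) were called as lower in 2 cases with sex as a covariate or scaling to total counts and in 3 without SMA 2, and 2 rose without wild type 2 and 0 without SMA 1 or 2. They summed to 147 to 191 and 98.9 to 128 CPM, with Mrc1 at -1.72 and Adgre1 at -0.78. Of 8 adipocyte genes 3 fell, and 1 fell without wild type 2, without wild type 5 or with the replicate block. Their sum was 221 CPM in wild type 5, 33.8 to 93.7 CPM in the other wild type libraries and 26.5 to 53.5 CPM in SMA, with Ucp1 at -5.59 and Lep, which had 0 counts in 2 SMA libraries, lower as well. Higher in SMA were Schwann cell genes (8 of 9 rose), at 428 to 968 and 1085 to 2411 CPM, with Sox10 at 1.32, and satellite cell genes (5 of 9 rose, 1 fell; 2 rose with sex as a covariate, and 2 fell without SMA 3), at 246 to 293 and 308 to 323 CPM, with Sdc4 at 0.92. The lowest adjusted p-values in the cell cycle list were those of Top2a, at -2.50, and Mki67, at -2.20. Summed levels of the 21 endothelial identity genes were 1308 to 1594 CPM in wild type and 1281 to 1579 CPM in SMA. Those of the 9 mural genes were 648 to 735 and 480 to 638 CPM, and those of the 6 ligand genes 429.5 to 532 and 246 to 407 CPM, without overlap. These sums weigh genes by their level, and they include Abcc9, at means of 213 and 126 CPM, and Vegfa, at 254 and 156 CPM. The median log2 fold change was 0.014 over the mural genes, of which 5 were positive, and -0.47 over the ligand genes, of which 2 were.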

How the data were processed

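Total RNA of hindlimb muscle was made into stranded mRNA libraries from 200 ng (integrity number over 7) and sequenced as paired reads of 75 bases, per the labels' protocols. The deposited table holds whole-number counts per gene symbol, and the authors' second table a signal, each count divided by a size factor per library (0.735 to 1.23). HTSeq 0.9.1, DESeq2 1.16.1 and mm10 are named in the submitters' processing notes without roles. For the aligner, annotation and strand setting: not given in the sources used here.

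Counts were tested in R 4.3.3 with edgeR 4.0.16 (filterByExpr, TMM, quasi-likelihood test on all 9 libraries with group as its 1 term, Benjamini-Hochberg adjustment). Standard errors are the log2 fold change divided by the square root of F, with 95% intervals from the same fit. Alternatives used DESeq2 1.42.0, limma 3.58.1 and other scalings, filters and libraries. Replicates were checked for duplicates (chi-square per degree of freedom from 11.2 to 81.3 for pairs within groups), and 0 columns were left unused. The procedure was tested on simulated counts, where 42% of 1.5-fold, 72.7% of 2-fold and 100% of 4-fold changes were recovered. Far fewer genes were changed there than were called in these data, so it does not check calls in that setting. The members, lists and tests were chosen with earlier results of these data known. Named are all 36 members, Smn1 and the 2 other genes with the lowest adjusted p in each list, or 4 in the hypoxia and VEGF lists. One gene that this rule names is not reported here.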

Additional observations from a re-analysis of the deposited data

Results flagged for a closer look

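Of 80 groups of 4 or 5 libraries examined, those of the 36 members and of 4 ratios, 11 held a library far from the others, where chance flags about 1 in 20. In wild type these were Cdh5 in library 1 at 168 CPM (others 223 to 234), Sox7 in library 1 at 22.4 CPM (others 28.1 to 30.4), Erg in library 2 at 26.0 CPM (others 22.4 to 23.3) and Apln in library 5 at 70.7 CPM (others 45.8 to 52.0). The ratios of Apln to Aplnr, at 0.876 against 0.435 to 0.529, and of Pdgfb to Pdgfrb, at 1.15 against 0.784 to 0.881, were also apart in wild type 5. In SMA these were Kdr in library 1 at 77.1 CPM (others 87.9 to 90.1), Flt1 in library 2 at 30.7 CPM (others 22.9 to 23.9), and in library 3 Cldn5 at 103 CPM (others 45.7 to 50.5), Egfl7 at 172 CPM (others 107 to 113) and Cspg4 at 29.7 CPM (others 37.5 to 38.6).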

How the results depend on the processing

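Scaling to total counts, which raises the median of all genes by 0.24 on the log2 scale, gave 8 members that rose and 5 that fell, and it turned the value of 10 members that had not passed (Aplnr 0.099, Egfl7 0.21, Emcn 0.18, Eng 0.16, Esam 0.19, Flt1 0.029, Kdr 0.059, Pdgfrb 0.16, Pecam1 0.22 and Vwf 0.057). Upper-quartile scaling turned Cldn5 (-0.0074), Notch3 (-0.045) and Sox17 (-0.025), limma-voom turned Cldn5 (-0.032) and the stricter filter Pecam1 (0.0017). Sex as a covariate turned Cldn5 (-0.066), Emcn (0.025), Notch3 (-0.042) and Pecam1 (0.035). Without wild type 5 and SMA 3, Cldn5 (-0.39) and Sox17 (-0.0295) turned, and the log2 difference in the ratio of Angpt2 to Angpt1 was 0.35 (exact permutation p = 0.2). Leaving out single libraries gave 2 to 5 members that rose and 7 to 11 that fell, and log2 fold changes from -0.32 to 0.16 for Cldn5, -0.028 to 0.14 for Cnn1, -0.21 to 0.043 for Egfl7, -0.14 to 0.011 for Emcn, -0.19 to 0.053 for Esam, -0.047 to 0.11 for Notch3, -0.050 to 0.021 for Pecam1 and -0.090 to 0.097 for Sox17. The ratio of Angpt2 to Angpt1 then ranged from 0.38 to 0.65 and that of Vegfa to Kdr from -0.75 to -0.44 as log2 differences.

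With the replicate number as a block, 4 members rose and 9 fell of the 36, and Cldn5 (-0.12) and Notch3 (-0.042) turned. In the paired exact test of 4 pairs, which cannot go below p = 0.125, the ratios were 0.52 (Angpt2 to Angpt1), -0.54 (Vegfa to Kdr), -1.0 (Apln to Aplnr) and -0.51 (Pdgfb to Pdgfrb). Deviations of libraries with the same number correlated at -0.048 to 0.12, and 0 of 4 SMA libraries correlated best with their own number, so the numbers were not taken as pairs.

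Of 14 called members, 7 kept the call in all 19 alternatives, 7 lost it in at least 1 and 0 reversed, and 12 of the 22 others passed in at least 1. The cause of these shifts was not tested. With 5 and 4 libraries, a change that did not pass is not shown to be absent. Values and counts of the named list genes and lists under these alternatives were added after the data were seen.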
